A study of Mus musculus with 9 samples.

Results

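The transcripts described here are those of mouse embryonic fibroblasts (MEFs) in which the transcription factor Foxk1 was put back, set against the same knockdown cells without it. The members are 6 of the 9 arrays of the series, chosen by their titles. Of these, 3 arrays carry a short hairpin RNA against Foxk1 (shFoxk1) and 3 carry that hairpin together with added Foxk1 (rescue). The remaining 3 arrays, with a hairpin against the jellyfish protein GFP (shGFP), entered the model only through the estimate of the spread and are printed where they help to place a level. Both groups compared therefore carry the Foxk1 hairpin, all groups carry a hairpin, and all cells were grown in DMEM, a standard medium. How much of Foxk1 was added, from which species, by which vector, and whether the cells were clones or pools cannot be read from the labels. The labels number the replicates 1 to 3 and do not say whether they were separate cultures, and the p-values then cover the spread of these arrays alone, which may be technical.

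Foxk1 is a forkhead transcription factor with a close relative, Foxk2. Both are known to act with the Sin3 corepressor on starvation and autophagy genes, to move between nucleus and cytoplasm under mTORC1 and GSK3 signalling, and to raise glycolytic enzymes, in part through the hypoxia factor HIF1. HIF1 is a pair of proteins, Hif1a and Arnt, of which Hif1a is marked for destruction by prolyl hydroxylases when oxygen is plentiful. Its target genes serve glycolysis, acid handling, mitochondrial clearance, blood vessel growth and collagen modification.

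Levels are log2 values per probe set, on which a difference of 1 is a doubling, and all differences below are rescue minus shFoxk1. The median of an array was 5.92 to 5.95, and correlations across genes within a group were 0.998 to 0.999. Rescue replicate 2 stood apart from its group. On the first principal component of the 6 arrays, which held 39.8% of their variance, it scored 16.2, against 0.15 and 5.32 for rescue replicates 1 and 3 and -9.97 to -3.04 for shFoxk1. The main counts are therefore given with and without it. The fibroblast label was borne out by its markers, of which 12 of 13 reached 6.56, which is the median gene's level, and the array means of that list went up to 11.1. Lists of macrophage, endothelial, epithelial, muscle, neural, fat, cartilage and pluripotent markers averaged 4.86 to 6.46 per array. Among these other cell types 0 markers were called. In bulk RNA, fewer cells of a type and less RNA per cell cannot be told apart.

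The targeted gene was examined first. The brightest Foxk1 probe set read 8.98, 8.89 and 8.95 on the shGFP arrays, 7.75, 7.96 and 7.74 on the shFoxk1 arrays, and 8.04, 7.77 and 7.76 on the arrays labelled rescue. Rescue and shFoxk1 overlapped, with rescue replicate 1 the highest and the other two rescue arrays among the shFoxk1 values. The difference was 0.04 (95% interval -0.15 to 0.22, limma adjusted p = 0.869), and it was -0.05 without rescue replicate 1. A dimmer probe set, at a mean of 4.90, differed by 0.17 and had every rescue array above every shFoxk1 array (adjusted p = 0.339 over all probe sets). The files do not place these probes relative to the hairpin site or the added sequence. The rescue label is therefore not checked by the arrays, and every direction below rests on it. Foxk2 differed by 0.00 (95% interval -0.12 to 0.12).

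Of 20672 genes, limma called 197 at an adjusted p under 0.05, or 0.953% of genes. The 135 higher genes were 0.653% of all, and the 62 lower genes were 0.3%. For every list below, these shares are the background of its counts of called members. Over all genes, 11435 had a higher mean in rescue and 9234 a lower one. An unadjusted p under 0.05 was reached by 13.8%. All 3 rescue arrays lay above all 3 shFoxk1 arrays for 8.46% of genes and below them for 7.17%. The median difference of all genes was 0.01 and the differences ran from -1.04 to 1.17. Without rescue replicate 2, limma called 80 genes higher and 25 lower, 71 and 25 of them among those above. A fit of the 6 arrays alone called 57 and 20. Of the 135 higher genes, 46 passed whichever of the 9 arrays was left out, as did 15 of the 62 lower genes. The description below covers genes that kept their call in all of those fits and genes that lost it in some.

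**Figure D1:**
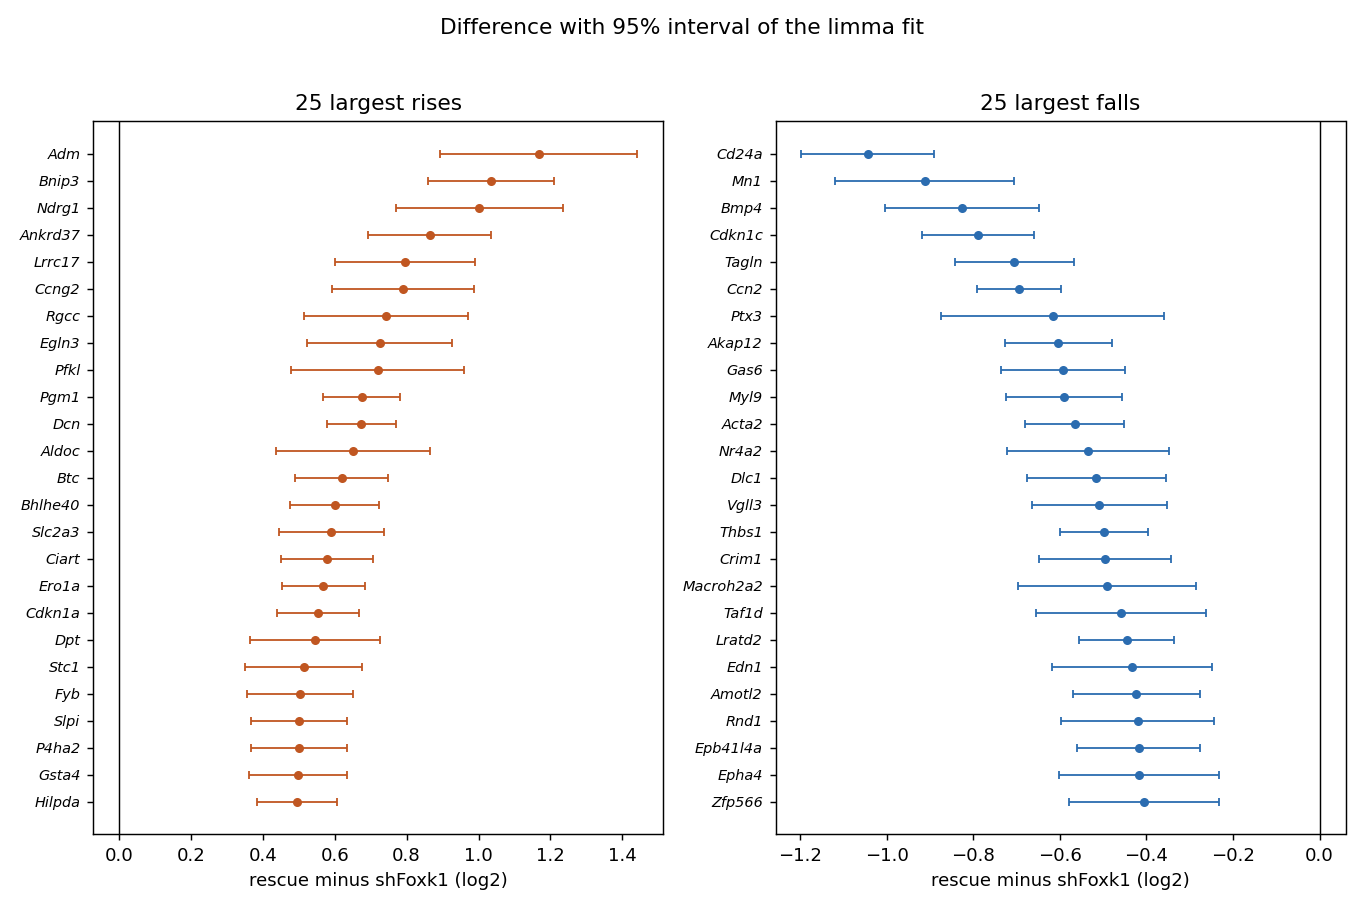
Difference between rescue and shFoxk1 on the log2 scale, with the 95% interval of the limma fit over 9 arrays, for the 25 largest rises (left) and 25 largest falls (right) among called genes at or above the median level. The rises run up to Adm at 1.17 and the falls down to Cd24a at -1.04, and 0 of the intervals reach 0, since only called genes are shown.

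HIF1 targets outside glycolysis held the largest block of called genes. Despite its name, this list shares Slc16a3, Pdk1, Pfkfb3 and Pfkfb4 with the glycolysis list below, and these were not called. Of 49 members on the array, 20 rose, 0 fell and 29 did not pass, with a median difference of 0.24 against 0.01 for all genes. A share of 40.8% of the list was called higher, where the background is 0.653%. The mean of the 49 members was 8.74, 8.66 and 8.65 on the shFoxk1 arrays and 8.99, 8.98 and 8.97 on the rescue arrays, with shGFP between them at 8.78 to 8.81. Leaving out rescue replicate 2 left 17 of the 20 called, 16 were called whichever array was left out, and the 6 arrays alone called 15.

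HIF1 is known to bind the letters ACGTG or GCGTG, which are in capitals here on either strand. The stretch of 250 bases before the gene start is shown for 6 risers, picked by name and not by a rule. All 6 hold the letters, and Pgm1 is outside the HIF1 list. Among strong risers not shown, Ccng2 (0.79) has a window with the letters and Lrrc17 (0.80) has a window without them. The sequences are those of RefSeq on GRCm38.p6, written in the direction of the gene. Bnip3 lies at chr7:138909507-138909756 on the minus strand, Car9 at chr4:43506776-43507025 on the plus strand and Ankrd37 at chr8:45999851-46000100 on the minus strand. The window of Egln3 is chr12:54203875-54204124 on the minus strand, that of Adm chr7:110627407-110627656 on the plus strand, and that of Pgm1 chr4:99929201-99929450 on the plus strand.
Bnip3: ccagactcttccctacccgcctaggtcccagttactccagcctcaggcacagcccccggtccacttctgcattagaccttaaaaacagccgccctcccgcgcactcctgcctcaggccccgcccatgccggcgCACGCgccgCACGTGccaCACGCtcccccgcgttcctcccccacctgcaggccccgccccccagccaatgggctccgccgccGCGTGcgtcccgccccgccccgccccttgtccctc
Car9: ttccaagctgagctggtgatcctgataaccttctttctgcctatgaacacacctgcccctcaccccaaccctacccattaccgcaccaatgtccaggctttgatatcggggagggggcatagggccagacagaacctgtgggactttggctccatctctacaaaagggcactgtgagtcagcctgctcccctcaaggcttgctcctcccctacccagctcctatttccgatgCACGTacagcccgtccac
Ankrd37: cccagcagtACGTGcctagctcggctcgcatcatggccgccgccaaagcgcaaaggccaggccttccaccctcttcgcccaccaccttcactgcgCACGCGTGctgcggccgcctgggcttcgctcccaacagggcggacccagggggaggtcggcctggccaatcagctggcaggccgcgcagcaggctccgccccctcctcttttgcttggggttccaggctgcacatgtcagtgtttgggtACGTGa
Egln3: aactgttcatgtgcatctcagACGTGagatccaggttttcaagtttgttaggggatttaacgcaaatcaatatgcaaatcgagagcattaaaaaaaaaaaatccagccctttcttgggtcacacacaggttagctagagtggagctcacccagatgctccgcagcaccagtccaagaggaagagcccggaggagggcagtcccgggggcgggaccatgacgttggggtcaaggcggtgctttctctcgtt
Adm: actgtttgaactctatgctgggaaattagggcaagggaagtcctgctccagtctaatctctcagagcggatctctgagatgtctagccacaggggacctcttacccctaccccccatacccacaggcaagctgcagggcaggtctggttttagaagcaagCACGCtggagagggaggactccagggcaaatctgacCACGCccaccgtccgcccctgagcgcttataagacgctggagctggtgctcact
Pgm1: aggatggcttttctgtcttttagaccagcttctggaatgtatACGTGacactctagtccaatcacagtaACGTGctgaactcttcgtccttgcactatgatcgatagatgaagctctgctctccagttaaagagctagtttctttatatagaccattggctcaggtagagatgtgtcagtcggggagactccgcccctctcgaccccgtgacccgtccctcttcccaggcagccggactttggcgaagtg

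In Bnip3 the letters begin at -117, -108, -107, -99 and -35 from the gene start, and the matches at -108 and -107 overlap by all but 1 base, on opposite strands. Car9 has a single match at -18, close to its start. A gene with several starts has several such windows, and a gene is counted below if any of its windows holds the letters. Among the called HIF1 targets, 14 of 20 have a window and 14 of those 14 genes (100%) hold ACGTG or GCGTG. The same letters were held by 36 of the 38 list members with a window, called or not (94.74%), by 53.85% of all genes and by 38.6% of all windows. The stricter ACGTG was found in 11 of the 14 genes (78.57%), in 68.42% of the list members, in 22.57% of all genes and in 16.57% of all windows. Genes called higher outside the HIF1 list held ACGTG in 12 of 82 (14.63%), which is below the share of all genes. That set may still include HIF1 targets, since the list leaves out most glycolysis genes. Slc2a1, Pgm1 and Hilpda hold ACGTG and are counted in it. The forkhead letters TAAACA stood in 9 of 96 higher genes (9.375%), 5 of 35 lower genes (14.29%), 10.7% of all genes and 12.03% of all windows. HIF1 list members were picked as known targets, so their letters are a description and no site or cause.

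Adm, which encodes the vessel-widening peptide adrenomedullin, rose the most of all genes. It stood at 6.79, 6.31 and 6.60 on the shFoxk1 arrays and at 7.90, 7.54 and 7.76 on the rescue arrays, a difference of 1.17 (SE 0.12, 2.25-fold, adjusted p = 0.00164). The groups did not overlap, and replicate 1 was the highest and replicate 2 the lowest on both sides. That probe set is of a kind that may cross-react (a name ending in _x_at), and the second Adm probe set rose by 1.48. Car9, a carbonic anhydrase that serves acid handling, stood at 5.55, 5.26 and 5.19 in shFoxk1 and at 6.66, 6.44 and 6.29 in rescue (difference 1.13, SE 0.10, adjusted p = 0.00078). Its shFoxk1 and shGFP values, and those of rescue replicates 2 and 3, were under the 6.56 of the median gene. The rescue and shFoxk1 arrays were apart. Bnip3, a mitochondrial protein that marks mitochondria for removal, went from 11.38, 11.04 and 11.20 to 12.31, 12.20 and 12.22 (difference 1.03, SE 0.08, 2.05-fold). Every rescue array of Bnip3 was also above every shGFP array, which read 11.46 to 11.58. Ndrg1, a stress-response gene, went from 9.53, 9.16 and 9.28 to 10.45, 10.27 and 10.26. Its 5 probe sets were all called, at 0.74 to 1.18. Ankrd37, a small ankyrin-repeat protein, stood at 8.78, 8.64 and 8.60 against 9.66, 9.58 and 9.37 in rescue (difference 0.86, adjusted p = 0.00078).

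Of the oxygen sensors, the hydroxylases Egln3 and Egln1 were among the rises. Egln3, a prolyl hydroxylase whose gene is itself a HIF1 target, read 8.95, 8.63 and 8.63 in shFoxk1 and 9.59, 9.45 and 9.34 in rescue (difference 0.73, SE 0.09, adjusted p = 0.00447). Egln1, the main hydroxylase acting on Hif1a, rose less and more evenly, from 10.29, 10.31 and 10.30 to 10.61, 10.61 and 10.58 (difference 0.30, SE 0.04). These were 2 of 16 HIF subunits and regulators called, where the list median was -0.01. Hif1a, named after its value was seen, had shFoxk1 values of 11.76, 11.56 and 11.72 and rescue values of 11.74, 11.48 and 11.80, which overlapped. Its difference was -0.01 (95% interval -0.20 to 0.18), and it stood on the other side of 0 in 5 of 18 alternative fits. A dimmer Hif1a probe set stood at -0.43 (adjusted p = 0.281 over all probe sets), and with all its probe sets averaged the difference was -0.11. Transcript levels do not measure Hif1a protein, which these arrays cannot show.

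Further HIF1 targets rose with the groups apart. Ccng2, an atypical cyclin linked to growth arrest, rose by 0.79 (SE 0.09, adjusted p = 0.00228), from 8.79 to 9.13 across the shFoxk1 arrays to 9.61 to 9.83 in rescue. Bhlhe40, a clock and stress repressor, rose by 0.60 and stood at 9.42, 9.29 and 9.44 in rescue and 9.31, 9.32 and 9.35 in shGFP. Ero1a, which oxidises proteins in the endoplasmic reticulum, rose by 0.57. Stc1, a secreted glycoprotein, rose by 0.51, and Ddit4, an mTORC1 inhibitor known as REDD1, by 0.42 (adjusted p = 0.00444). Higd1a and Fam162a, both mitochondrial proteins, rose by 0.37 and 0.32. Vegfa, the vessel growth factor, was the weakest of the 20 at 0.25 (adjusted p = 0.0494), and it lost its call whichever of the 9 arrays was left out (adjusted p of 0.0785 to 0.154). With the probe sets of a gene averaged in place of the brightest, the calls of Vegfa (0.14, adjusted p = 0.215) and Fam162a (0.30, adjusted p = 0.0725) also ended. Pdk1, which keeps pyruvate out of mitochondria and was named after its value was seen, stood at 0.50 on its brightest probe set and did not pass (adjusted p = 0.0691). Its shFoxk1 replicate 2 was low at 9.24 against 9.72 and 9.68, and without that array the difference was 0.35 and passed (adjusted p = 0.0406). It also passed with the replicate number as a block (adjusted p = 0.0376). A pair of dimmer Pdk1 probe sets was called, at 0.50 and 0.51.

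**Figure D2:**
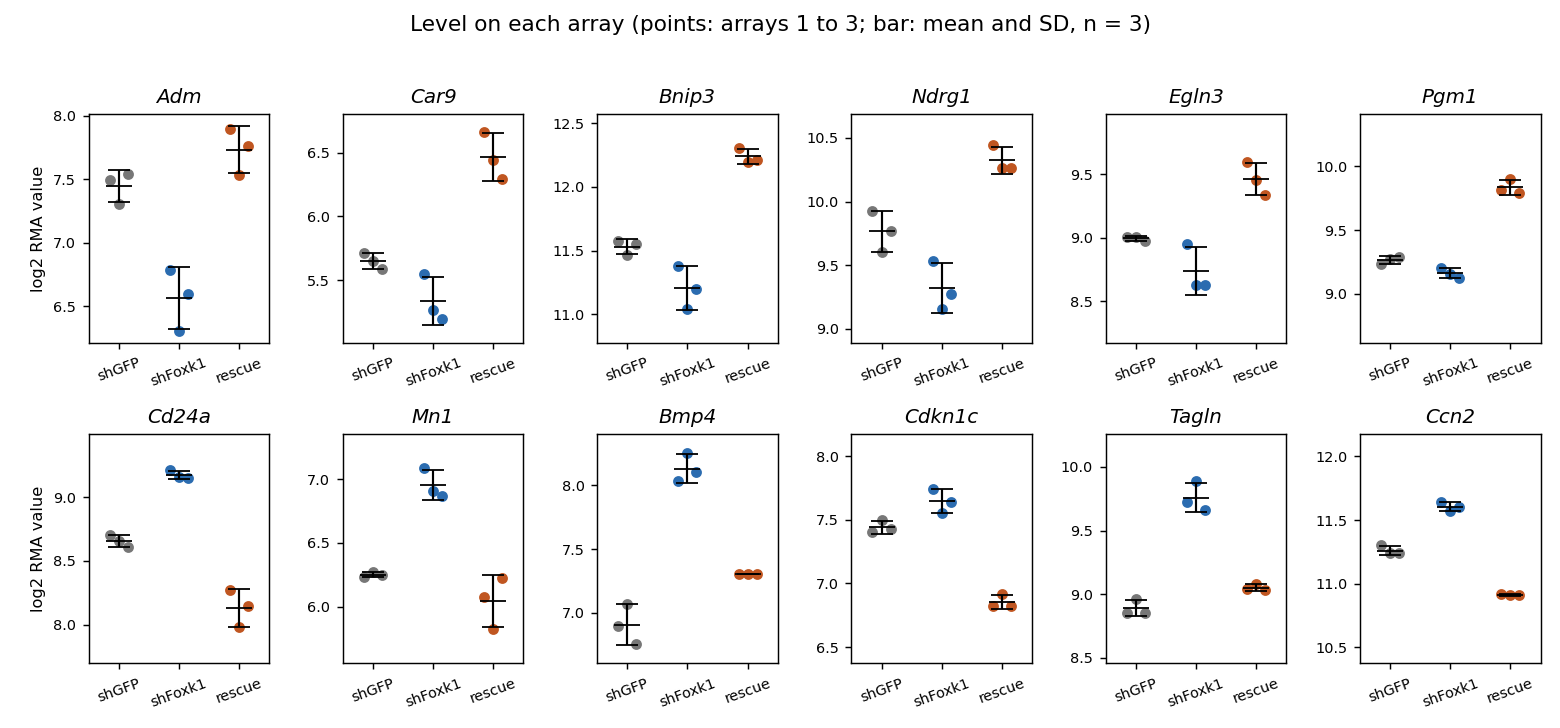
Log2 level on each of the 9 arrays (points) with the mean and SD of 3 arrays (bars) for 6 genes that rose and 6 that fell in rescue against shFoxk1, each panel on its own axis. In all 12 panels the rescue points lie clear of the shFoxk1 points, while their place relative to shGFP differs from gene to gene: Bnip3 and Pgm1 lie above it, Cd24a and Cdkn1c below it, and Tagln near it.

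Glycolysis and glycogen genes rose in part. Of 32 glycolysis members, 6 rose (18.75%, with a background of 0.653%) and 0 fell, with a median of 0.12. A higher mean in rescue was found for 28, against 11435 of all 20672 genes. Pfkl, the liver form of the committed-step enzyme phosphofructokinase, rose by 0.72 (SE 0.11, adjusted p = 0.0118), with values of 9.85, 10.18 and 9.91 against 10.49, 10.84 and 10.77. In both groups replicate 2 was the highest. The glucose transporter Slc2a3 rose by 0.59 and was the 1 glycolysis call that survived leaving out any array. Both called Slc2a3 probe sets are of the kinds that may cross-react, and without such probe sets its difference was 0.05 (adjusted p = 0.877). With all probe sets averaged, Slc2a3 stood at 0.24, Aldoc at 0.34 and Hk1 at 0.28 (adjusted p of 0.0471, 0.0257 and 0.0523). Aldoc, an aldolase, rose by 0.65, Slc2a1, the general glucose transporter, by 0.37, Hk1, the first kinase of the pathway, by 0.33, and Tpi1, triose phosphate isomerase, by 0.32. Leaving out shFoxk1 replicate 3 ended the calls of Pfkl (adjusted p = 0.0726), Aldoc (0.0674), Slc2a1 (0.0726), Hk1 (0.102) and Tpi1 (0.0578). Leaving out shFoxk1 replicate 1 ended those of Pfkl (0.0634), Aldoc (0.0599), Hk1 (0.0941) and Tpi1 (0.0617), and leaving out rescue replicate 3 those of Pfkl (0.06), Slc2a1 (0.0647), Hk1 (0.0761) and Tpi1 (0.0551). Without rescue replicate 2, Pfkl (0.0513) and Hk1 (0.0776) did not pass.

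The storage branch gave firmer single genes. Pgm1, which links glucose 6-phosphate to glycogen, stood at 9.20, 9.16 and 9.12 in shFoxk1 and 9.81, 9.90 and 9.79 in rescue (difference 0.67, SE 0.05, adjusted p = 0.000232). The shGFP arrays, at 9.23 to 9.29, lay beside the shFoxk1 arrays. Gys1, the muscle-type glycogen synthase, rose by 0.42 (SE 0.05, adjusted p = 0.00322), from 9.14, 9.25 and 9.13 to 9.58, 9.61 and 9.60. Both kept their calls in every fit tried, at 0.44 and 0.27 with all probe sets averaged. These were the calls among 24 glycogen genes, whose median was 0.04, and the branching enzyme Gbe1 stood at 0.37 (adjusted p = 0.108).

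Cholesterol synthesis genes rose by small amounts, and the lipid lists held few calls. Of 24 cholesterol synthesis genes 2 rose (8.33%, with a background of 0.653%), and the median was 0.12. The mean was higher in rescue for 23, against 11435 of all 20672 genes. All 3 rescue arrays lay above all 3 shFoxk1 arrays for 16 of the 24, where the background is 8.46%. The list mean was 10.06, 10.07 and 9.99 in shFoxk1 and 10.19, 10.15 and 10.19 in rescue. Fdps, which makes farnesyl diphosphate, rose by 0.28, and Nsdhl, a sterol dehydrogenase, by 0.33. Fdps did not pass without shFoxk1 replicates 1 and 3 or rescue replicate 3, each left out in turn (adjusted p of 0.0578 to 0.0733), and Nsdhl passed in 4 of the 9 such fits (adjusted p of 0.0503 to 0.122 in the others). With all probe sets averaged Fdps stood at 0.20 (adjusted p = 0.0613). Of 21 fatty acid genes the desaturase Scd1 rose, by 0.29, and its call survived 3 of the 9 fits (adjusted p of 0.052 to 0.121 in the others). Hilpda, which coats lipid droplets and blocks their breakdown, belongs to the largest rises. It stood at 9.93, 9.94 and 9.94 in shFoxk1 and 10.44, 10.45 and 10.40 in rescue (difference 0.49, SE 0.05, adjusted p = 0.00131).

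Among the genes that fell, targets of the coactivator YAP and its partner TEAD formed the largest listed group. Of 27 members, 5 fell (18.5%, with a background of 0.3%) and 0 rose, with a median of -0.07. The list mean was 9.55 on each shFoxk1 array and 9.46, 9.41 and 9.43 on the rescue arrays. Without rescue replicate 2, 4 of the 5 were called, but 2 were called whichever array was left out and the 6 arrays alone called 2. Yap1 itself, named after its value was seen, differed by -0.02 (95% interval -0.12 to 0.08). TEAD factors are known to bind the letters GGAATG, and the 3 windows below are shown with those letters, on either strand, in capitals. Ankrd1 lies at chr19:36119845-36120094 on the minus strand, Ccn1 at chr3:145649986-145650235 on the minus strand and Amotl2 at chr9:102717554-102717803 on the plus strand, from RefSeq on GRCm38.p6.
Ankrd1: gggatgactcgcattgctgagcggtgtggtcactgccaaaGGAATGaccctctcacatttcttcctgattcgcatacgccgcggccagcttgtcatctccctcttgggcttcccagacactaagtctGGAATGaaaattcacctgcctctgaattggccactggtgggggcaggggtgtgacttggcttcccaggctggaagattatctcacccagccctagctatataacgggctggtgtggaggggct
Ccn1: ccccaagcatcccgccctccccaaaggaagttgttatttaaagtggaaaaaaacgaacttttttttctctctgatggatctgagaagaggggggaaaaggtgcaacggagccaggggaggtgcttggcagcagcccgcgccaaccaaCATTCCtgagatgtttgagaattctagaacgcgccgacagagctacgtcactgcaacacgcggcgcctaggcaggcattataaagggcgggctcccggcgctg
Amotl2: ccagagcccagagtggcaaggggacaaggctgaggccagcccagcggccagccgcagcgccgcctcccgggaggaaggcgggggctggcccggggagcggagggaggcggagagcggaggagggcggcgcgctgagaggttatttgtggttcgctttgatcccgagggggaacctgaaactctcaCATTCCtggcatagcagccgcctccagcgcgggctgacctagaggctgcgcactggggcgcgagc

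All 4 called YAP and TEAD members that have a window held GGAATG, as did 8 of 35 lower genes (22.86%), 9 of 96 higher genes (9.375%), 13.45% of all genes and 12.64% of all windows. The list members were picked as known targets, and the share over all of them was not counted. These 4 genes are also among the 8 lower genes. The matches are a description, on 4 genes, and no site or cause. In Ankrd1 they begin at -210 and -123, in Ccn1 at -103 and in Amotl2 at -65.

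Ccn2, the connective tissue growth factor, fell the most of the group. It stood at 11.64, 11.57 and 11.61 in shFoxk1 and at 10.92, 10.91 and 10.91 in rescue, a difference of -0.69 (SE 0.04, adjusted p = 0.000135). The shGFP arrays, at 11.24 to 11.30, lay between the groups. Ccn1, a related matricellular protein, fell by 0.37 on its brightest probe set and was called on all 4 of its probe sets, at -0.47 to -0.35. Its shFoxk1 values of 12.68, 12.65 and 12.67 lay next to the shGFP values of 12.63 to 12.65, and rescue stood below both at 12.28 to 12.31. Crim1, a membrane protein that binds BMPs, fell by 0.50, Amotl2, a YAP-binding junction protein, by 0.42 and Ankrd1, a cardiac-type ankyrin repeat factor, by 0.27. Crim1 did not pass without shFoxk1 replicate 3 (adjusted p = 0.0512), nor Amotl2 without rescue replicate 2 (0.0574) or rescue replicate 3 (0.06). Ankrd1 did not pass without shFoxk1 replicate 1 (0.111), shFoxk1 replicate 3 (0.106), rescue replicate 1 (0.0554) or rescue replicate 3 (0.0969), nor when array medians and spreads were made equal (0.13). Vgll3, a TEAD cofactor outside the list, fell by 0.51, from 9.81, 9.61 and 9.71 to 9.33, 9.17 and 9.11, and its other 2 probe sets were called at -0.42 and -0.54.

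**Figure D3:**
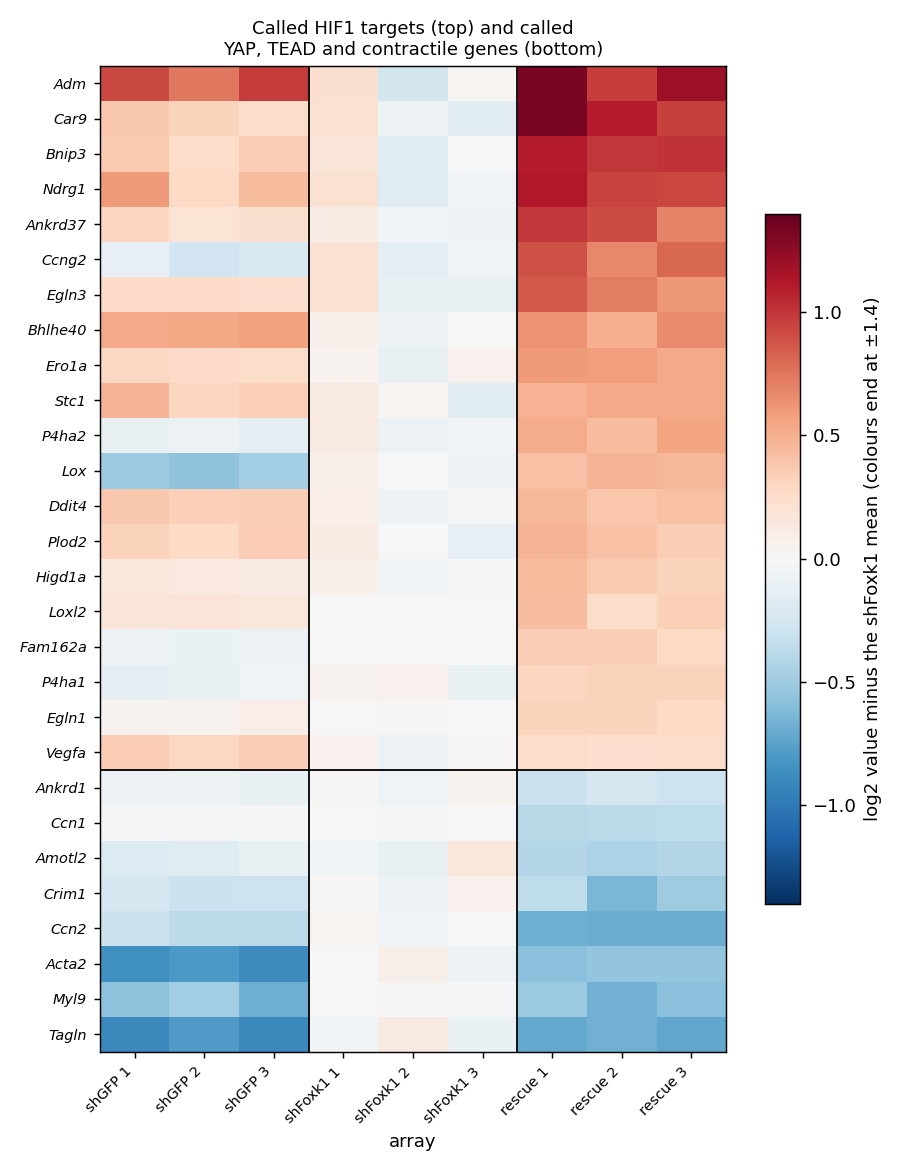
Log2 value minus the shFoxk1 mean of the gene, coloured, for the called HIF1 targets (upper block) and the called YAP, TEAD and contractile genes (lower block) on each of the 9 arrays. All rescue columns are red in the upper block and blue in the lower one, and the shGFP columns vary between genes.

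Contractile genes fell on 3 of 27 members (11.1%, with a background of 0.3%), and 0 rose, with a median of 0.02. Tagln, an actin-binding protein of smooth muscle, stood at 9.72, 9.89 and 9.66 in shFoxk1 and at 9.04, 9.08 and 9.03 in rescue (difference -0.71, SE 0.06, adjusted p = 0.00078). Myl9, a myosin light chain, went from 7.84, 7.86 and 7.81 to 7.32, 7.16 and 7.26 (difference -0.59, SE 0.06). The shGFP arrays stood at 8.85 to 8.96 for Tagln, just under the rescue arrays, and at 7.16 to 7.35 for Myl9, overlapping them. Acta2, smooth muscle actin, fell by 0.57 on a probe set of a kind shared between transcripts (_s_at), from 11.66 to 11.82 in shFoxk1 to 11.15 to 11.17 in rescue. Its 2 other probe sets were dim, near 4.34 and 4.62, and without the ambiguous kind of probe set the difference was -0.07 (adjusted p = 0.714). With all probe sets averaged it was -0.21 (adjusted p = 0.138). The window of Myl9 at chr2:156775214-156775463 on the plus strand is shown because it holds a CArG box (capitals), the site of serum response factor in contractile genes.
Myl9: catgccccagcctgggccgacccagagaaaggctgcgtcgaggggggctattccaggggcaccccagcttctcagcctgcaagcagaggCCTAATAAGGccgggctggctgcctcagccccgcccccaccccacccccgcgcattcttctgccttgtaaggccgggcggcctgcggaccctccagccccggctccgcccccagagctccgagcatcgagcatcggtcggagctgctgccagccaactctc

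The box begins at -161. A CArG box stood in 1 of 35 lower genes with a window (2.857%), in 1.447% of all genes and in 1.467% of all windows.

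Matrix genes moved in both directions. Dcn, the small proteoglycan decorin, had the smallest p of all rises. It stood at 11.37, 11.45 and 11.42 in shFoxk1, at 12.09, 12.06 and 12.11 in rescue and at 11.69 to 11.70 in shGFP (difference 0.67, SE 0.04, adjusted p = 0.000135). Lrrc17, a secreted leucine-rich protein, rose by 0.80 from values near the median level, 6.57, 6.50 and 6.55, to 7.19, 7.29 and 7.54. With all probe sets averaged, Dcn rose by 0.36 and Lrrc17 by 0.37. Thbs1, thrombospondin, fell by 0.50, from 9.42, 9.35 and 9.44 to 8.89, 8.93 and 8.90. Dpt, dermatopontin, rose by 0.55 and did not pass without rescue replicate 3 (adjusted p = 0.0581). Of 35 matricellular genes 3 rose and 3 fell, with a median of 0.02.

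Among 23 enzymes that modify collagen, 5 rose (21.7%, with a background of 0.653%) and 0 fell, with a median of 0.08. All 5 are also HIF1 targets in the list above, so they are not separate evidence. Lox, which crosslinks collagen, stood at 11.76, 11.69 and 11.62 in shFoxk1 and at 12.10, 12.16 and 12.15 in rescue (difference 0.45, SE 0.05). Both of those groups lay above shGFP, at 11.13 to 11.20. The prolyl hydroxylase P4ha2 rose by 0.50, and its paralogue P4ha1 by 0.31. Plod2, a lysyl hydroxylase, rose by 0.41, with a second probe set at 0.65, and Loxl2, a Lox relative, by 0.34. Plod1 stood at 0.40 and did not pass (adjusted p = 0.0574), though its groups were apart, and it passed without shFoxk1 replicate 2 (adjusted p = 0.0258) or when replicates were blocked by number (0.0251). Leaving out shFoxk1 replicate 1 ended the calls of P4ha1 (0.0622) and Loxl2 (0.055), and leaving out shFoxk1 replicate 3 those of P4ha1 (0.0726), Plod2 (0.0534) and Loxl2 (0.054). P4ha1 and Plod2 did not pass without rescue replicate 2 (0.0784 and 0.0513), nor P4ha1 without rescue replicate 3 (0.0969) or with all probe sets averaged (0.131).

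The collagens themselves were split. Col6a3, a chain of beaded collagen VI, rose by 0.42, and its partner Col6a2 by 0.31. Col5a2, which sets fibril width, fell by 0.27, and a second probe set of it fell by 0.49. Of 22 collagens, 2 rose and 1 fell. The calls of Col6a3 (without shFoxk1 replicate 3, adjusted p = 0.0578) and Col5a2 (without shFoxk1 replicate 1, 0.071, or rescue replicate 3, 0.053, or with equal array spreads, 0.082) each depended on single arrays, and Col6a2 passed in 2 of the 9 fits that left out an array (adjusted p of 0.069 to 0.155 in the others). The stromelysins Mmp10 and Mmp3 rose by 0.42 and 0.39 and were the more stable of the metalloproteinase calls. Mmp10 stood at 6.82, 6.80 and 6.83 in shFoxk1, 7.25, 7.22 and 7.24 in rescue and 7.48 to 7.60 in shGFP. Adam8, a membrane protease, rose by 0.37 and did not pass without shFoxk1 replicate 1 (0.0534), shFoxk1 replicate 3 (0.0534) or rescue replicate 3 (0.0776). Timp3, a protease inhibitor, fell by 0.26, with its call kept in 3 of the 9 fits (adjusted p of 0.0542 to 0.135 in the others).

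Signalling molecules held the largest fall. Cd24a, a small sugar-coated surface protein, stood at 9.21, 9.16 and 9.15 in shFoxk1 and at 8.27, 7.98 and 8.15 in rescue (difference -1.04, SE 0.07, adjusted p = 0.000135). The dimmer probe sets called for it read -0.98 and -1.03. Rescue lay below shGFP too, which was 8.61 to 8.70. Bmp4, a growth factor, went from 8.04, 8.26 and 8.10 to 7.31 on each of the 3 rescue arrays (difference -0.83, SE 0.08, adjusted p = 0.00103), still above shGFP at 6.75 to 7.07. Bambi, a decoy receptor that dampens TGF-beta and BMP signals, read 8.81 on each shFoxk1 array and 8.49, 8.36 and 8.50 in rescue (difference -0.36, SE 0.05). They were the calls of the BMP list of 30 and the TGF-beta list of 25, with medians of 0.01 and -0.03. Akap12, a scaffold for protein kinase A, fell by 0.60, from a mean of 8.96 to one of 8.36, with the groups apart. Gas6, a ligand of Axl-type receptors, fell by 0.59, from 6.91, 6.90 and 7.12 to 6.35, 6.44 and 6.36, beside 6.31 to 6.39 in shGFP, and by 0.34 with all probe sets averaged.

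Other secreted factors were less secure. Btc, betacellulin, an EGF receptor ligand outside the lists, rose by 0.62 and was called in every fit tried, from 6.66, 6.66 and 6.52 to 7.29, 7.17 and 7.23. With all its probe sets averaged the rise was 0.42. Areg, amphiregulin, of the same ligand family, rose by 0.40, and it passed in 4 of the 9 fits that left out an array (adjusted p of 0.0731 to 0.132 in the others). Angpt2, an antagonist of the Tek receptor, rose by 0.30 and passed in 1 of those 9 fits (0.0618 to 0.147 in the others). Its dimmer probe set went the other way, at -0.21, and with both averaged Angpt2 stood at 0.05 (adjusted p = 0.693). It did not pass with replicates blocked by number (0.0604). Edn1, the vessel-narrowing peptide endothelin, fell by 0.43 and passed in 1 of 9 (0.062 to 0.152 in the others). The Wnt antagonist Dkk2 rose by 0.41 and did not pass without shFoxk1 replicate 2 (0.0592) or shFoxk1 replicate 3 (0.0939). Saa3, an acute phase protein, rose by 0.30 and passed in 1 of 9 (0.073 to 0.155 in the others). Ptx3, a secreted pentraxin, fell by 0.62, from 9.08, 8.87 and 9.08 to 8.53, 8.29 and 8.36, far above shGFP at 7.23 to 7.73. It passed in 3 of 9 (0.0514 to 0.164 in the others), and stood at -0.36 with all probe sets averaged.

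Inhibitors of the cell cycle moved in opposite directions. Cdkn1a, which encodes p21, stood at 10.30, 10.33 and 10.20 in shFoxk1 and at 10.84, 10.87 and 10.78 in rescue (difference 0.55, SE 0.05, adjusted p = 0.00078), beside 10.78 to 10.86 in shGFP. Its second called probe set rose by 0.58. Cdkn1c, which encodes p57 and is imprinted, went from 7.74, 7.55 and 7.64 to 6.83, 6.92 and 6.82 (difference -0.79, SE 0.06, adjusted p = 0.00026), below shGFP at 7.40 to 7.50. Of 29 CDK inhibitors and G1 cyclins 2 rose, the other being Ccng2, and 1 fell. Among 35 DNA replication genes and 33 mitosis genes 0 were called, which is near the 0.953% of all genes called. Of the replication genes 27 had a lower mean in rescue, against 9234 of all 20672 genes, with a median of -0.04. Cdkn1a was the 1 riser of 28 p53 targets, and Plk2, a polo-like kinase, fell by 0.24. Plk2 passed in 2 of the 9 fits that left out an array (adjusted p of 0.0507 to 0.106 in the others). Its dimmer probe set stood at 0.10, and with both averaged the difference was -0.07 (adjusted p = 0.488).

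Several large changes lay outside the lists. Ciart, a repressor of the circadian clock, rose by 0.58, from 7.79, 7.81 and 7.73 to 8.23, 8.43 and 8.40. Rgcc, a cell-cycle regulator induced by complement, rose by 0.74, from 7.01, 7.28 and 6.87 to 7.96, 7.79 and 7.64, and by 0.46 with all probe sets averaged. The protease inhibitor Slpi rose by 0.50 to 10.89 to 10.97, with shGFP and shFoxk1 together at 10.33 to 10.56. Gsta4, a glutathione transferase that clears lipid aldehydes, rose by 0.50 and was the 1 call among 21 NRF2 genes. Fyb, an adaptor protein best known from T cells, rose by 0.50. Among the falls, Mn1, a transcriptional coregulator, went from 7.08, 6.91 and 6.87 to 6.07, 5.82 and 6.23 (difference -0.91, SE 0.09, adjusted p = 0.00131), beside 6.23 to 6.27 in shGFP. Lratd2 fell by 0.45, from 7.74, 7.79 and 7.76 to 7.34, 7.35 and 7.27. Epb41l4a, a cytoskeletal protein, fell by 0.42 and did not pass without shFoxk1 replicate 1 (0.0536) or rescue replicate 2 (0.0563).

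Among the less secure of the 25 largest falls were Epha4, an ephrin receptor (-0.42), and Rnd1, a small GTPase (-0.42), each passing in 1 of the 9 fits that left out an array. Their adjusted p in the others ran from 0.0569 to 0.198 and from 0.0521 to 0.164. Zfp566, a zinc finger protein (-0.41), and Taf1d, a subunit of the polymerase I factor (-0.46), passed in 2 of 9 (0.0551 to 0.174 and 0.0599 to 0.179 in the others). Macroh2a2, a histone variant (-0.49), passed in 0 of 9 (0.0514 to 0.133). Blocking by replicate number also ended the calls of Epha4 (0.0599), Rnd1 (0.0526) and Macroh2a2 (0.0733). The nuclear receptor Nr4a2, an immediate early gene, fell by 0.53 and did not pass without shFoxk1 replicate 1 (0.081), shFoxk1 replicate 3 (0.0932) or rescue replicate 3 (0.0583). It rests on such a shared kind of probe set, and stood at -0.16 (0.462) without such probe sets and at -0.19 (0.117) with all averaged. Taf1d stood at -0.23 (0.168) with all averaged. Ier3, another early gene, rose by 0.31 and did not pass without shFoxk1 replicate 3 (0.0554) or rescue replicate 3 (0.0594). Cth, an enzyme that makes cysteine and the 1 lower gene of 37 ATF4 targets, fell by 0.39 and did not pass without shFoxk1 replicate 1 (0.0906), rescue replicate 2 (0.0533) or rescue replicate 3 (0.0925).

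**Figure D4:**
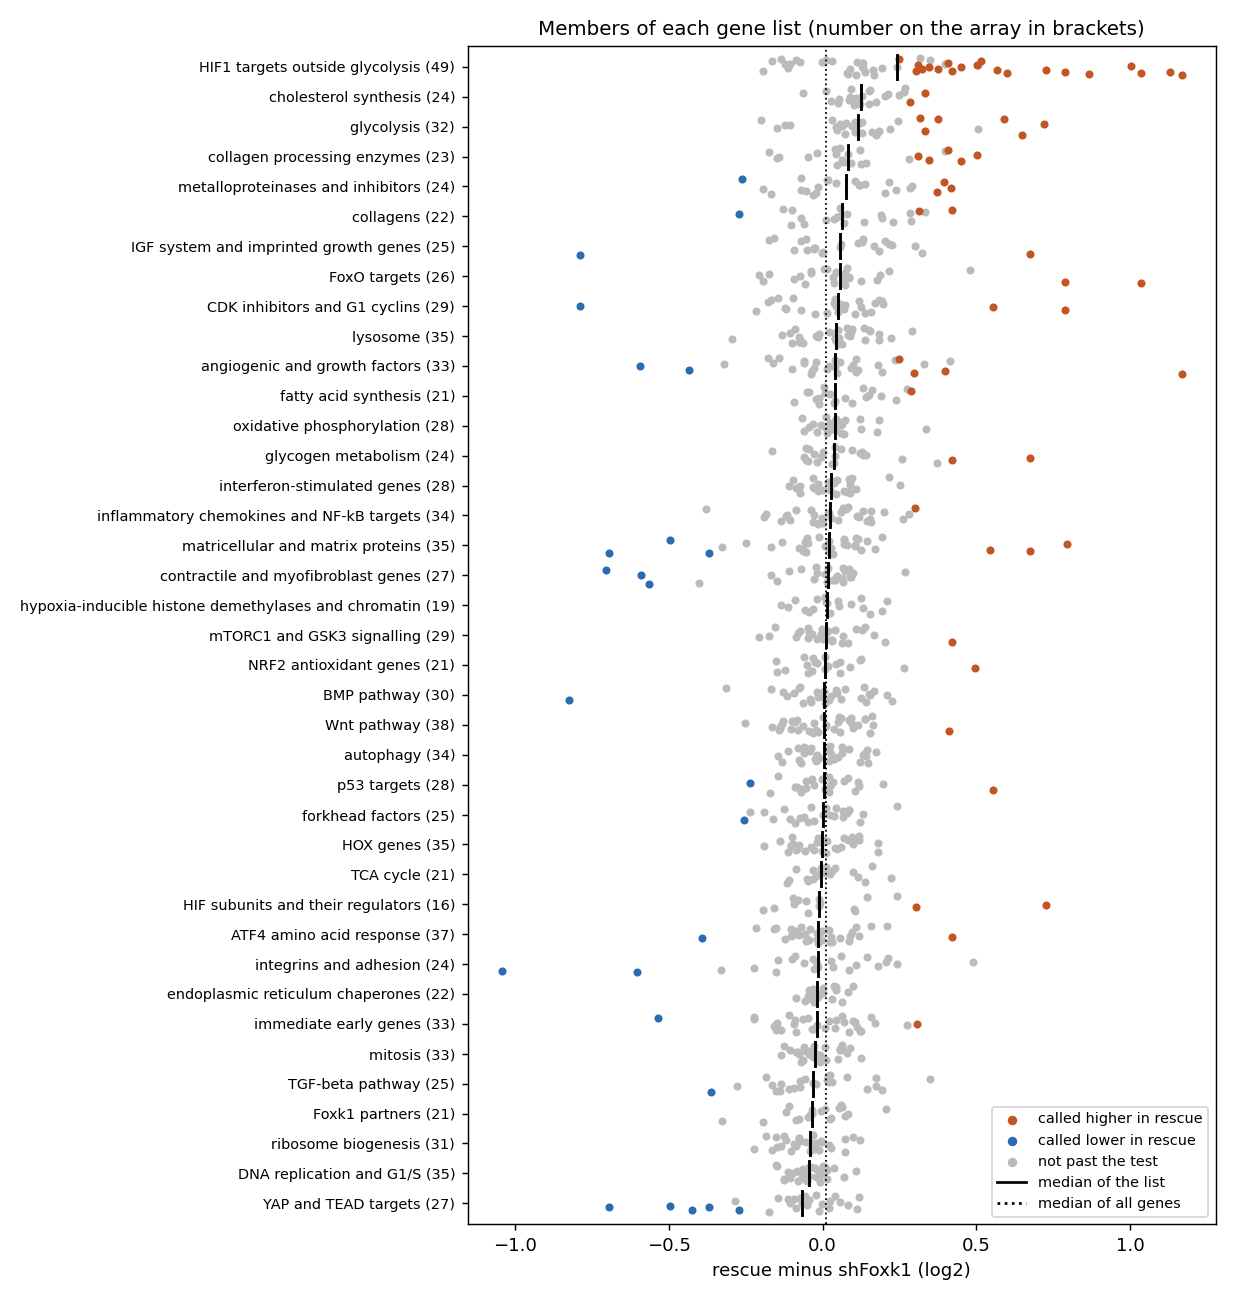
Difference between rescue and shFoxk1 (log2, horizontal) for each member of the gene lists, ordered by list median (black bars), with called genes coloured by direction and the median of all genes as a dotted line. The HIF1 targets have the highest median, 0.24, and the YAP and TEAD targets the lowest, -0.07.

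Autophagy and the signalling genes around Foxk1 held few or 0 calls, where 0.953% of all genes were called. At that share a list of this size may hold 0 calls, so a count of 0 says little about its genes. Among 34 autophagy genes 0 were called, with a median of 0.0040, and the 2 with the smallest p stood at -0.13 (Atg12) and 0.14 (Atg9a). Differences in that list ran from -0.15 to 0.17, and the list mean was 9.31 to 9.38 in shFoxk1 and 9.33 to 9.37 in rescue. Among 35 lysosome genes 0 were called, as among 21 known partners of Foxk1, where Sap30, a Sin3 complex subunit, stood at 0.21 and the chromatin protein Asxl1 at -0.19. Of 29 mTORC1 and GSK3 genes the riser was Ddit4, and of 26 FoxO targets the risers were Bnip3 and Ccng2, both of which are HIF1 targets as well. The FoxO target Sesn3, an mTORC1 inhibitor, stood at 0.48 (adjusted p = 0.0605), and it passed without shFoxk1 replicate 2 (0.0469). Of 25 forkhead genes, Foxd1 fell, by 0.26, and passed in 1 of 9 fits that left out an array (0.0667 to 0.185 in the others) and not with all probe sets averaged (0.117).

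Mitochondrial energy genes stayed under the threshold, with 0 of 28 oxidative phosphorylation and 0 of 21 TCA cycle genes called. These counts are near the 0.953% of all genes called, and the medians were 0.04 and -0.0046. Idh1, the cytosolic isocitrate dehydrogenase, had the smallest p of the TCA list and stood at 0.22 (adjusted p = 0.0691). Ribosome biogenesis genes, 0 of 31 called, had lower means in rescue for 25, against 9234 of all 20672 genes. All rescue arrays lay below all shFoxk1 arrays for 12 of the 31, where the background is 7.17%. The list mean was 11.48, 11.54 and 11.50 in shFoxk1 and 11.45, 11.46 and 11.45 in rescue. Myc, a driver of ribosome production, read 10.96, 10.95 and 10.86 in shFoxk1 and 10.70, 10.67 and 10.72 in rescue, a difference of -0.22 (adjusted p = 0.0726) with the groups apart. Chaperones of the endoplasmic reticulum, interferon-stimulated genes, HOX genes and histone demethylases also held 0 calls.

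The comparison of rescue with shGFP shares the rescue arrays with the differences above, so its values are only set beside them. The called genes took different positions, with 5.04% of all genes called in that comparison. Mean levels in shGFP, shFoxk1 and rescue were 9.33, 8.79 and 9.38 for Bhlhe40, and 10.82, 10.28 and 10.83 for Cdkn1a. For Myl9 they were 7.26, 7.84 and 7.25, and for Gas6 6.34, 6.98 and 6.38. In these 4 genes rescue differed from shGFP by 0.06, 0.01, -0.01 and 0.05 (adjusted p of 0.653, 0.921, 0.959 and 0.775), which does not show that they were equal. Other genes lay beyond shGFP. Rescue exceeded shGFP by 0.97 for Lox, 0.99 for Ccng2, 1.02 for Lrrc17, 0.81 for Car9 and 0.71 for Bnip3, and lay below it by 0.59 for Cdkn1c, with adjusted p between 7.97e-06 and 0.00151. Ptx3 and Mmp10 lay between, with rescue at 0.92 and -0.30 from shGFP (adjusted p = 0.00136 and 0.00352).

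**Figure D5:**
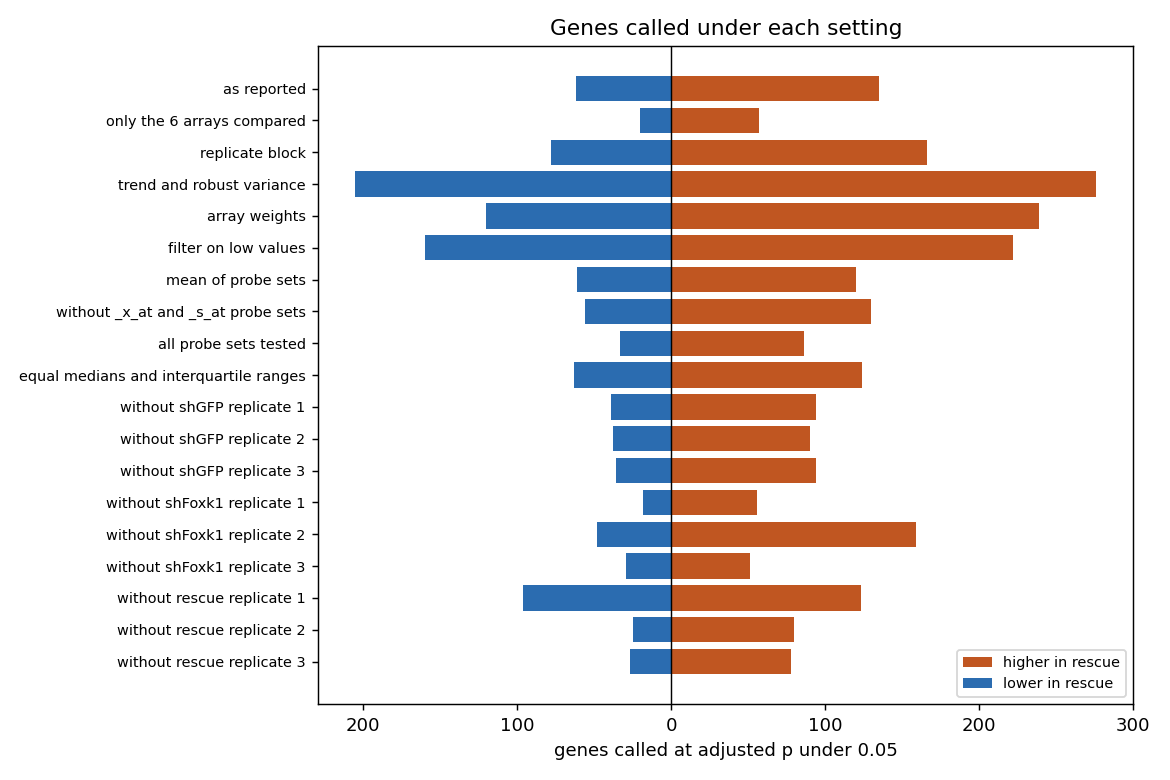
Number of genes called higher (right) and lower (left) in rescue against shFoxk1 at an adjusted p under 0.05 under the fit as reported and each of 18 alternatives. The counts run from 51 to 276 higher and from 18 to 205 lower, and higher calls outnumber lower ones in every bar.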

How the data were processed

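The authors deposited log2 values, 1 for each probe set on each array. Per the submitters' processing notes the tools were RMA and affy, without versions. RMA makes array distributions alike, so a change in total RNA per cell is removed. For rescue against shFoxk1 the authors' deposited table holds log2 fold changes, p-values and adjusted p-values, and the scores t and B, per the file headers. That authors' deposited table lists 170 probe sets at an adjusted p under 0.05, and a limma fit to all probe sets called 170, with p-values whose log10 differed by at most 1.02e-07.

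The array has 45101 probe sets, of which 64 were controls, 38089 had 1 symbol, 6948 none and 0 several. Symbols were updated through Entrez identifiers with a RefSeq table of GRCm38.p6, which matched 35121 probe sets. Each of 20672 genes was represented by its brightest probe set over the 9 arrays. Group means over all 9 arrays were fitted with limma 3.58.1 in R 4.3.3 (6 residual and 4.46 prior degrees of freedom), two-sided, with Benjamini-Hochberg adjustment over all genes, no filter and no minimum fold. The median SE of a difference was 0.0642, and the number of arrays limits the precision. On simulated data with 20672 genes, 56.72% of log2 changes of 0.3 and 100% of those of 0.6 and 1 were recovered. There were 13 false calls. The simulated noise was independent between genes and arrays, with the spreads of the limma fit. It held no replicate effect and no outlying array, so these shares may not hold for the real arrays.

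Named genes were drawn from Foxk1 and Foxk2, the 25 largest rises and falls among called genes with groups apart and a higher mean at or above 6.56 (predicted genes and clones left out), every called list member, and the 3 members of each list with the smallest p. Hif1a, Yap1, Pdk1, Plod1 and genes with called dimmer probe sets were added after their values were seen. The comparison, the gene lists and the alternatives were chosen with earlier results of these data known. Alternatives were the 6 arrays alone, a replicate block, trended and robust variances, array weights, a low-value filter, other probe set rules, equal array spreads, and each array left out. Same-numbered shFoxk1 and rescue arrays deviated together from their group means (correlations of 0.230, 0.137 and 0.126, against -0.168 to 0.0067 for other pairs). The replicate block therefore takes the numbers to pair the samples, from the data alone, since the labels give only the number. The fit reported throughout did not use this pairing, and its p-values ignore it. Promoter windows came from RefSeq for 14517 of the 20672 genes.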

Additional observations from a re-analysis of the deposited data

Results flagged for a closer look

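Both results here come from probe sets that the comparison of genes does not use. Of 6948 probe sets without a gene symbol, 11 were called in rescue against shFoxk1, 4 higher and 7 lower. No gene is named for them. Of 17417 dimmer probe sets, 32 were called higher and 14 lower, and 12 of these belong to genes whose brightest probe set was not called, 8 of them higher and 4 lower. Pdk1 accounts for 2 of the 12, and the others are single probe sets of Cdc42ep3, Dnajc22, Fam114a1, Flt1, Hand2, Lbh, Nfib, Rprd1a, S100a16 and Sh2d5. In 2 genes the dimmer probe set went against the brightest: Hand2, at -0.45 against 0.08, and Rprd1a, at -0.65 against 0.01. These genes were named after their values were seen. Groups of 3 arrays are too small for a test of single outlying arrays.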

How the results depend on the processing

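The count of 197 called genes (135 higher, 62 lower) moved between settings. The 6 arrays alone gave 77 (57 and 20), trended and robust variances 481 (276 and 205), array weights 359 (239 and 120), the filter on low values 382 (222 and 160), and all probe sets tested separately 119 (86 and 33). Leaving out 1 array gave 74 to 219 calls, 51 to 159 higher and 18 to 96 lower. The replicate block gave 244 calls (166 and 78), and among the genes named it ended the calls of Angpt2, Epha4, Macroh2a2 and Rnd1 (adjusted p of 0.060, 0.060, 0.073 and 0.053) and ended no other. Under the block Pdk1 (adjusted p = 0.038) and Plod1 (0.025) passed. The cause of these moves was not tested. Among 99 genes and 1777 gene-by-setting values, 1480 kept direction and side of the threshold, 258 lost the call, 28 gained one and 11 turned in sign. The turns were in genes with differences near 0. Foxk1 ran from -0.052 to 0.11 and Foxk2 from -0.047 to 0.056 over the fits that left out an array. Hif1a ran from -0.070 to 0.087 over those fits, and was 0.012 with array weights, 0.0057 with equal array spreads and -0.11 with the mean of probe sets. Yap1 was 0.025 with the mean of probe sets. Of 666 list counts under alternatives, 157 moved. With 3 arrays a side, differences of about 0.3 could be missed, and larger ones in genes with a wide spread. Pdk1, at 0.50, did not pass in the limma fit as reported (adjusted p = 0.0691). Signal over background also limits genes below the median level, such as Car9.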
